A study of Homo sapiens with 10 samples.

Results

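The genes described here encode subunits of the oxidative phosphorylation machinery of mitochondria. They were chosen by symbol from the table of read counts per gene: NDUFA, NDUFB, NDUFC, NDUFS or NDUFV followed by a number for complex I, SDHA to SDHD for complex II, symbols starting with UQCR for complex III, COX4 to COX8 with an isoform letter and number for complex IV, and symbols starting with ATP5 for complex V. Pseudogene symbols ending in P and a digit were left out, which removed ATP5EP2 and UQCRBP1. This gave 79 of the 23089 genes of the table, with 37 in complex I, 4 in complex II, 9 in complex III, 11 in complex IV and 18 in complex V.

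Complexes I to IV pass electrons from NADH and succinate to oxygen and, complex II excepted, pump protons out of the mitochondrial matrix. Complex V, the ATP synthase, lets the protons flow back and makes ATP. Its catalytic F1 head is built of alpha and beta subunits around a central stalk of gamma, delta and epsilon, its membrane rotor is a ring of c subunits, and a peripheral stalk holds the head still. All members are nuclear genes; the subunits encoded by mitochondrial DNA were not analysed here. ATP5S and ATP5SL match the rule by symbol but are assembly-related proteins and not subunits of the enzyme, and NDUFA4, grouped here by symbol with complex I, is nowadays assigned to complex IV.

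The cells were U2OS, a human osteosarcoma line. They were transfected for 3 days with siCtrl 3, siCtrl 4, siH2A.Z1, siH2A.Z2, or siH2A.Z1 together with siH2A.Z2 (combined depletion), 2 libraries for each of the 5 groups, and strand-specific total RNA depleted of ribosomal RNA was sequenced. H2A.Z.1, encoded by H2AFZ, and H2A.Z.2, encoded by H2AFV, are isoforms of a histone variant found in nucleosomes around transcription start sites, and the comparisons ask what the loss of either isoform, or of both, does to transcript levels. What limits the groups as a model is that an isoform was depleted under a single siRNA name in the labels, in a tumour line, and that a control library is itself a transfected one. The study's methods describe the 2 libraries of a group as samples transfected side by side. The p-values thus do not measure the spread between experiments done at different times. They measure that between parallel transfections of the same line. Where the 4 controls form a single group, the spread also holds the difference between the control siRNAs. In bulk RNA, less of a transcript per cell and fewer cells that carry it cannot be told apart.

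The libraries held 16716990 to 26946836 counted reads each, with more than 10 counts in 15027 to 15703 genes. Of osteoblast lineage markers, SPARC was at 1554 to 2127 CPM (a read count relative to the TMM-scaled size of its library), COL1A1 at 374 to 1364 and RUNX2 at 10.8 to 22.9, whereas SP7 (at most 0.108), BGLAP (at most 0.454), COL1A2 (median 0.470), ALPL (0.397 to 7.88) and SPP1 (1.19 to 9.98) were low. Of markers of other cell types, CD3E of T cells (at most 0.0445 CPM), PTPRC of leukocytes (at most 1.19), ALB of liver (at most 0.541), KRT5 of epithelium (at most 0.818), MYH2 of muscle (at most 1.02) and PECAM1 of endothelium (at most 0.978) were near 0, while EPCAM (1.31 to 2.89) and CDH1 (0.379 to 3.99) of epithelium and VWF of endothelium (2.38 to 7.80) were low but detected.

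The siRNA sequences that the study lists under the names of the depletions are shown because their guide strands set which target they pair with and because positions 2 to 8 of a guide, its seed, can also pair with 3'UTRs of other transcripts. The study also lists a further siRNA against H2A.Z.2, and the labels do not say which was used in these libraries. The H2A.Z.2 guide and its sites are those of the siRNA listed under the plain name. The guide strands, taken as the reverse complement of the listed strand, with the seed in capitals, are:
H2A.Z.1 siRNA: cUCAAUCAaaacccacuac
H2A.Z.2 siRNA: uCAACACAcaacugucacc

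H2AFZ was at 280 and 279 CPM under siCtrl 3, 203 and 228 under siCtrl 4, 19.9 and 19.1 under siH2A.Z1, 234 and 262 under siH2A.Z2, and 22.5 and 21.9 in the combined depletion. H2AFV was at 249 and 241 CPM under siCtrl 3, 143 and 148 under siCtrl 4, 203 and 184 under siH2A.Z1, 61.9 and 65.8 under siH2A.Z2, and 80.3 and 70.3 in the combined depletion. Each siRNA lowered its own target to 7.9% (H2AFZ) and 32.7% (H2AFV) of the control mean, with no overlap with the controls. H2AFV nevertheless missed the threshold in the test of H2A.Z.2 depletion (log2 difference of -1.59 ± 0.28 (SE), adjusted p = 0.0754), and H2AFV was itself lower under siCtrl 4 than under siCtrl 3 (log2 difference of -0.75 ± 0.07, adjusted p = 1.32e-05). Here and below, differences and adjusted p-values are from edgeR's two-sided quasi-likelihood F test with Benjamini-Hochberg adjustment over all genes tested, ± is the standard error of a log2 difference, and a gene is called at an adjusted p under 0.05 and an absolute log2 difference above 0.32.

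Most members were well expressed. The level per length, the mean CPM of the 10 libraries per kb of transcript, had a median of 44.7 in complex I, 80.1 in complex II, 60.7 in complex III, 117 in complex IV and 81.7 in complex V. The highest levels per length were those of ATP5F1, the b subunit of the peripheral stalk (293 CPM per kb), COX7C, a small subunit of complex IV (221 CPM per kb), and NDUFA9, an accessory subunit of complex I (190 CPM per kb). The order depends on the length taken: with the canonical transcript in place of the median protein-coding transcript, NDUFA9 moved from rank 3 to rank 65, ATP5F1 from 1 to 19, and ATP5G2 (223 CPM per kb), COX7C (221) and UQCRH (171) came first.

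Tissue-restricted isoforms were at the bottom. COX6B2, the testis isoform of COX6B, had 3 to 8 counts per library, and COX7A1, the isoform of heart and skeletal muscle, 0 to 3, whereas their widely expressed counterparts COX6B1 and COX7A2 were at 116 and 143 CPM per kb. COX6A2, COX7B2 and COX8C were not analysed here. COX6B2 and COX7A1 were the only members under the filter on low counts, so that 77 of the 79 members were tested in every comparison. Of the tested members, ATP5L2 (0.888 CPM per kb), ATP5E (1.00 CPM per kb) and NDUFV3 (6.31 CPM per kb) were lowest. ATP5E encodes epsilon of the F1 head, and its 17 to 85 counts per library limit what can be seen for it. Its level per length was taken over a median transcript of 1878 nt. Whether its reads were lost to the pseudogene ATP5EP2, left out above, or to overlapping genes was not tested. ATP5L2 and UQCRHL are near copies of ATP5L and UQCRH, and NDUFC2 and ATP5J2 overlap read-through genes, so that counts of these genes are uncertain. The transcripts of the members were short, with a median of 675 nt against 2300 nt for the tested genes with a known length, at a median GC content of 47.2% against 48.3%.

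**Figure D1:**
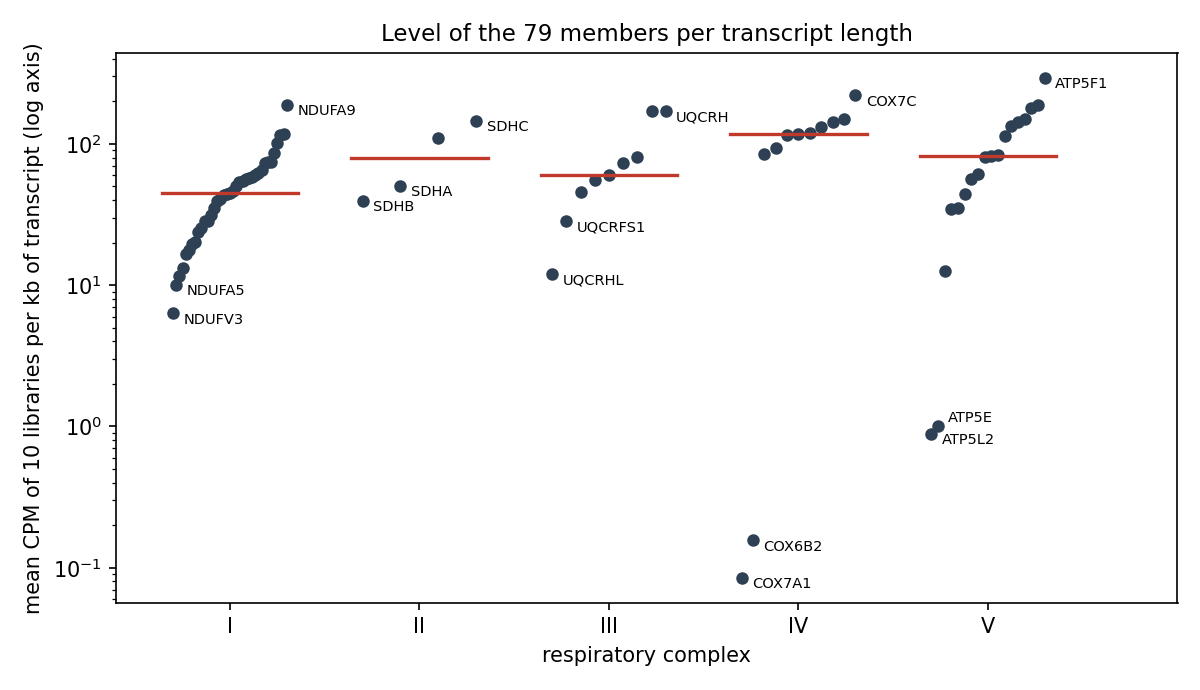
Level of each of the 79 members, as the mean CPM of the 10 libraries per kb of transcript, on a log axis, by respiratory complex (x axis). Each point is a gene and the red line is the median of the complex, 44.7 in complex I and 117 in complex IV; the isoforms COX6B2 and COX7A1 lie far under the other members.

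The control siRNAs differed from each other at these genes, which bears on every comparison below. Against siCtrl 3, the siCtrl 4 libraries had 17 of the 77 tested members called, 14 lower and 3 higher, where 34.5% of all 16486 genes tested were called (17.3% lower and 17.2% higher). The share of the members, 22.1%, was below that of all genes. NDUFB5, an accessory subunit of complex I, was at 53.4 and 50.5 CPM under siCtrl 3 and 24.5 and 26.0 under siCtrl 4 (log2 difference of -1.04 ± 0.09, adjusted p = 4.3e-06). The c-subunit gene ATP5G1 was at 61.7 and 61.9 CPM under siCtrl 3 and 38.3 and 36.5 under siCtrl 4 (log2 difference of -0.72 ± 0.09, adjusted p = 8.52e-05). COX7C was at 158 and 156 CPM and 94.1 and 103 CPM (log2 difference of -0.67 ± 0.08, adjusted p = 4.26e-05).

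In the other direction, NDUFC2 of complex I was at 7.86 and 7.96 CPM under siCtrl 3 and 14.9 and 16.5 under siCtrl 4 (log2 difference of 0.99 ± 0.12, adjusted p = 5.81e-05), and NDUFA7 at 4.19 and 4.64 CPM and 7.56 and 6.77 CPM (log2 difference of 0.70 ± 0.18, adjusted p = 0.00813, lost without replicate 1 of siCtrl 3 or of siCtrl 4, at up to 0.0648). In each of these 5 genes the libraries of the control siRNAs did not overlap. Of the 18 tested members of complex V, 6 were lower under siCtrl 4 and 1 was higher; the median difference was -0.24 in complex V, -0.20 in complex III, -0.14 in complex IV, -0.08 in complex I and 0.08 in complex II, and it was 0.01 over all genes.

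**Figure D2:**
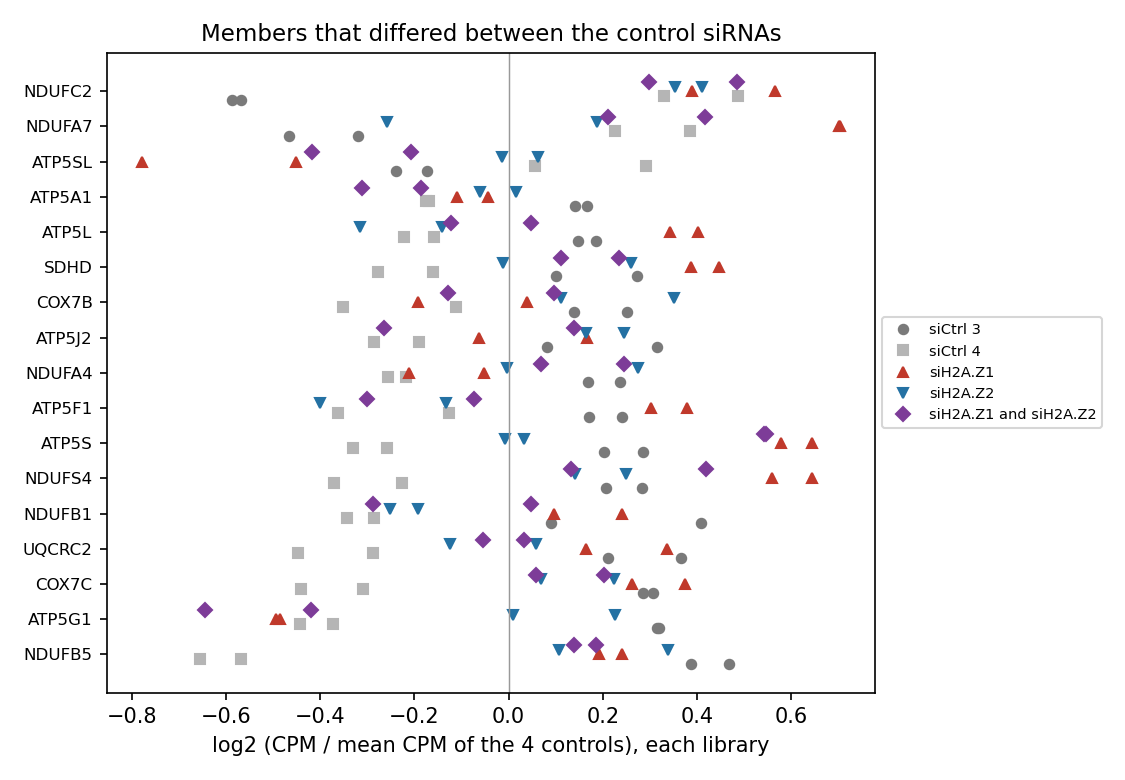
The 17 members that differed between the control siRNAs, each library as log2 of its CPM over the mean CPM of the 4 controls (x axis), with a colour and marker per group. The siCtrl 3 and siCtrl 4 points of a gene lie on opposite sides of 0, and for NDUFC2 the depleted libraries lie beside the siCtrl 4 libraries.

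H2A.Z.1 depletion lowered 14 of the 77 members and raised none. They were ATP5B, ATP5C1, ATP5O and ATP5SL of complex V, NDUFA9, NDUFS8, NDUFS3, NDUFA12, NDUFA6, NDUFA1, NDUFB4 and NDUFV1 of complex I, COX6A1 of complex IV and UQCRC1 of complex III, and no member of complex II was called. NDUFA1 and NDUFB4 fall outside the rule for named genes and were chosen after their values were seen. Over all 16112 genes tested, 28.0% were called, 15.7% lower and 12.2% higher. The share of members called lower, 18.2%, is thus near that of all genes, and their median log2 difference, -0.01, near that of all genes, -0.02.

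The absence of called rises depends on scaling: with upper-quartile factors 17 members were called, 5 of them higher, and with the library size alone 20, 8 of them higher. The share of all genes called under these scalings is not given here, so that a gain particular to the members cannot be read from these counts. Tested against the libraries of siCtrl 3 alone, 22 members were called (4 higher), where 47.8% of 15480 genes were (22.6% higher), and against siCtrl 4 alone 29 (13 higher), where 53.1% of genes were (25.4% higher). The 14 members named above were lower in both of these tests, 18.2% of the members where 17.2% of 15480 genes were, and ATP5S and NDUFS4 were higher in both, 2.6% where 14.4% of genes were. None of the members was called in opposite directions against the 2 control siRNAs.

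**Figure D3:**
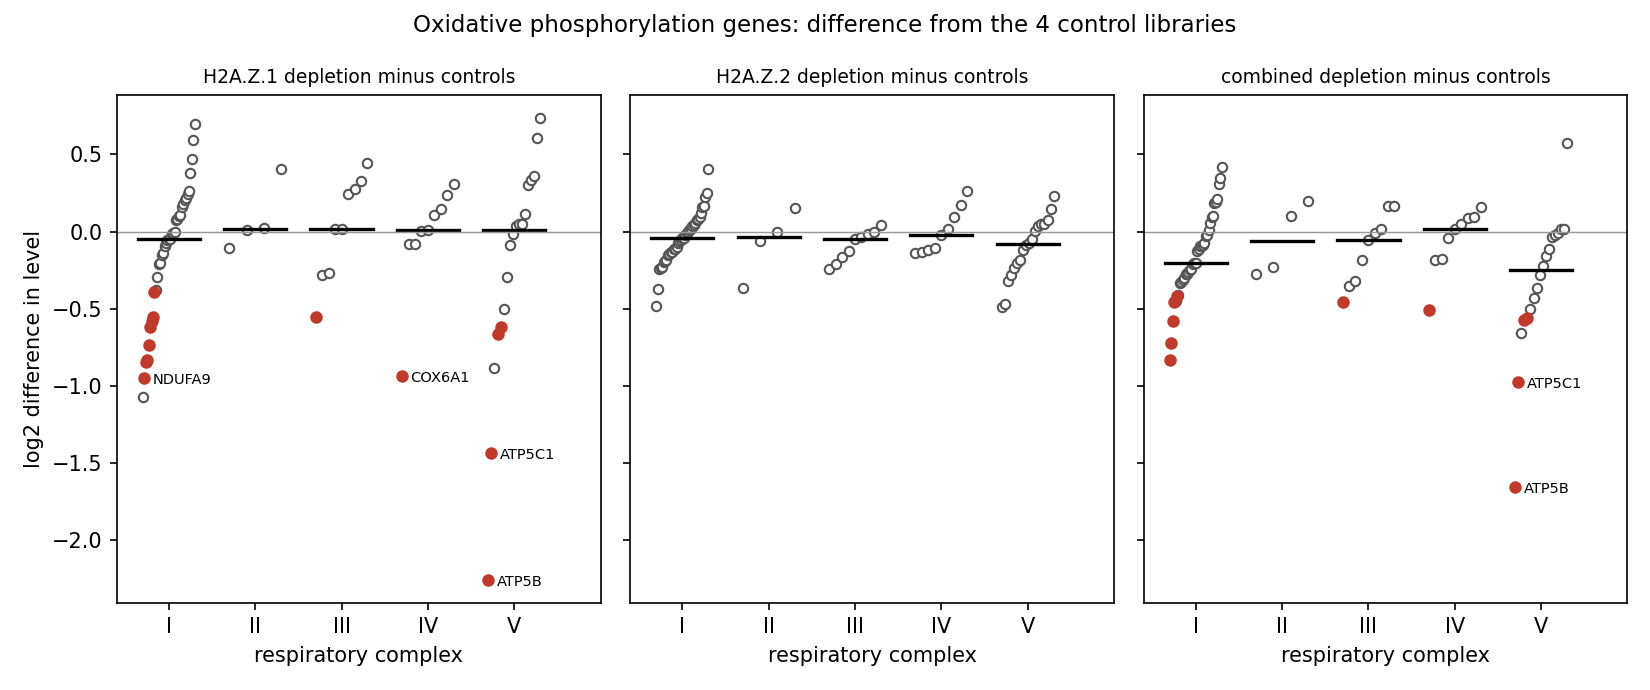
Log2 difference in level between each depletion and the 4 control libraries (y axis) for the 77 tested members, by respiratory complex (x axis). Filled red points are called genes, open points are not, and the black line is the median of the complex; 14, 0 and 11 members were called, all of them lower.

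Complex V held the largest differences, and they were uneven within the F1 head. ATP5B (current symbol ATP5F1B, chr12:56638175-56645984 on hg38) encodes the catalytic beta subunit. It was at 376 and 374 CPM under siCtrl 3, 306 and 309 under siCtrl 4, 69.09 and 75.04 under siH2A.Z1, 319 and 331 under siH2A.Z2, and 108 and 105 in the combined depletion. The libraries with siH2A.Z1 were thus far under all others, at 21.1% of the control mean with siH2A.Z1 alone (log2 difference of -2.25 ± 0.14, adjusted p = 0.000384) and at 31.3% in the combined depletion (log2 difference of -1.65 ± 0.13, adjusted p = 0.00159). With siH2A.Z2 alone the difference was -0.05 ± 0.12 (adjusted p = 0.896).

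ATP5C1 (ATP5F1C, chr10:7788147-7807815) encodes gamma, the rotating central stalk. It was at 124 and 133 CPM under siCtrl 3, 102 and 119 under siCtrl 4, 43.3 and 45.8 under siH2A.Z1, 98.7 and 118 under siH2A.Z2, and 63.1 and 56.6 in the combined depletion. It fell upon H2A.Z.1 depletion (log2 difference of -1.43 ± 0.14, adjusted p = 0.00098) and in the combined depletion (-0.97 ± 0.13, adjusted p = 0.00633), where the depleted libraries were below every control.

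The alpha subunit was not called against the 4 controls in any depletion. ATP5A1 (ATP5F1A, chr18:46080248-46104334), which alternates with beta in the F1 ring, was at 321 and 326 CPM under siCtrl 3, 259 and 258 under siCtrl 4, 282 and 270 under siH2A.Z1, 279 and 294 under siH2A.Z2, and 256 and 234 in the combined depletion. Its siH2A.Z1 libraries lay between those of the control siRNAs, with a log2 difference of -0.09 ± 0.14 (adjusted p = 0.671). The libraries of the combined depletion lay below every control, at 84.3% of the control mean (-0.22 ± 0.14, adjusted p = 0.295), and against siCtrl 3 alone the difference was called (-0.38 ± 0.06, adjusted p = 0.000568), against siCtrl 4 alone not (-0.04 ± 0.08, adjusted p = 0.675). The ratio of ATP5B to ATP5A1 CPM within a library was 1.15 to 1.20 in the controls, 1.14 and 1.13 under siH2A.Z2, 0.245 and 0.278 under siH2A.Z1, and 0.423 and 0.449 in the combined depletion.

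**Figure D4:**
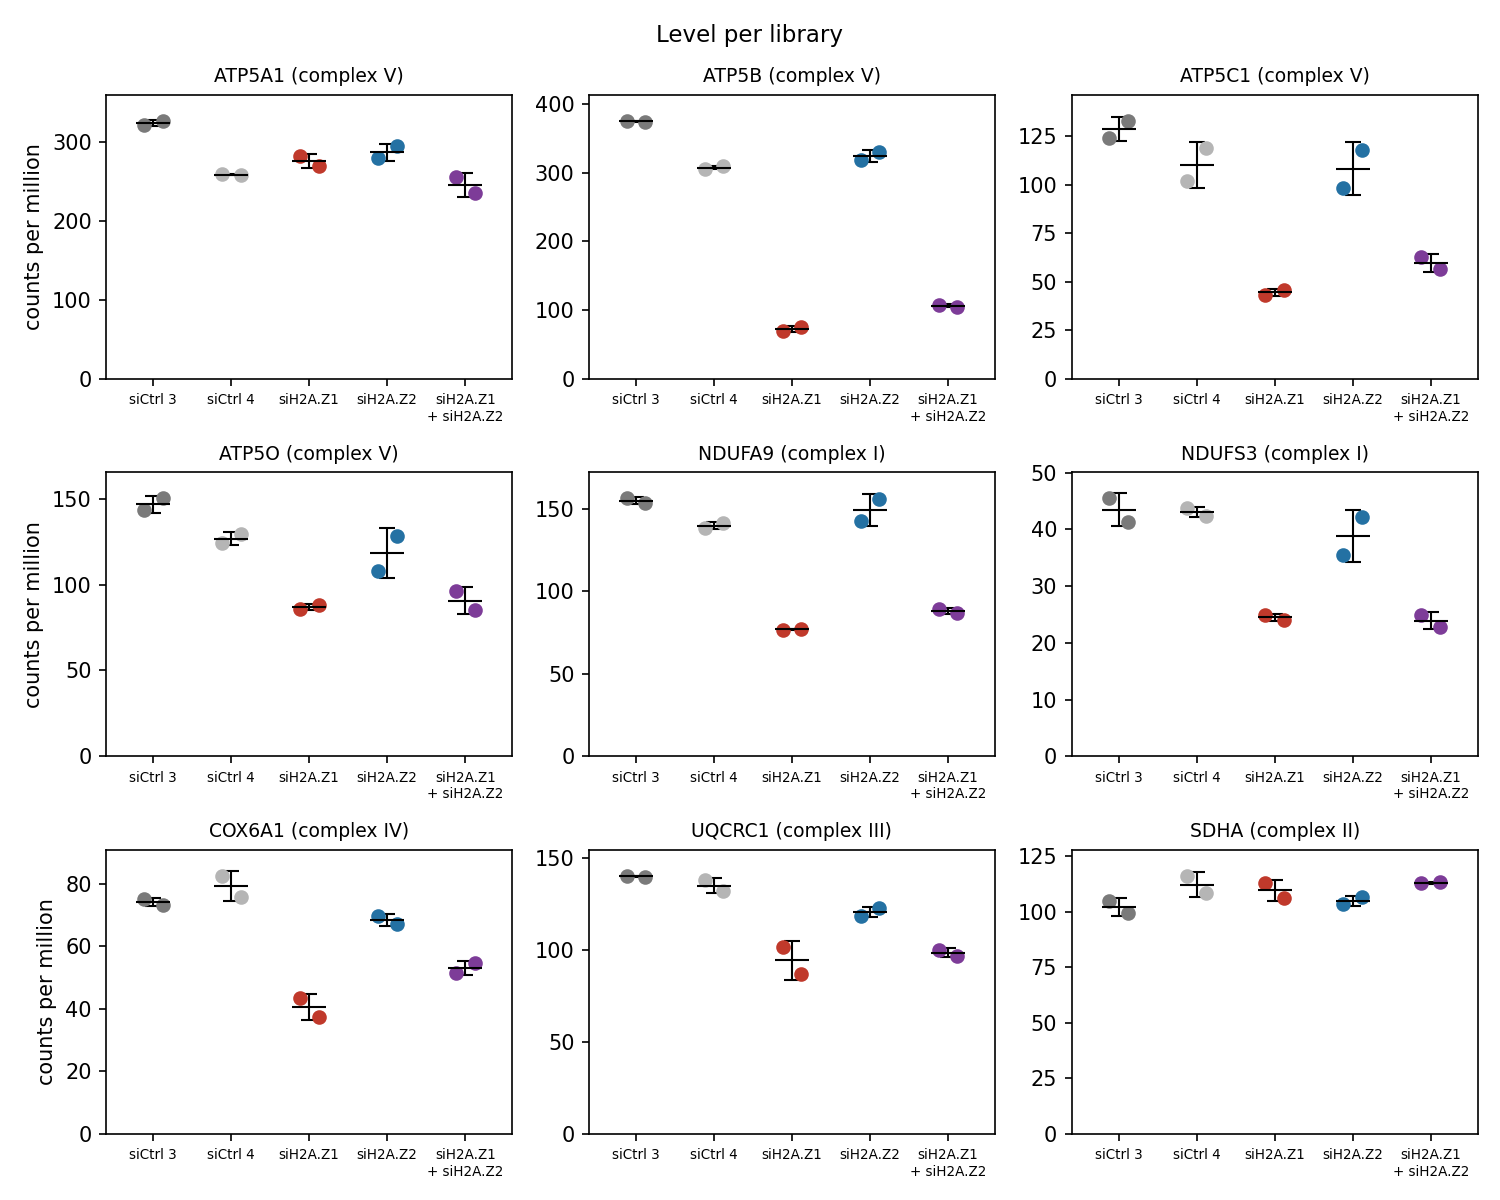
Level in CPM (y axis, from 0) of 9 members in each library, by group (x axis). Points are the 2 libraries of a group, the horizontal bar is their mean and the error bar 1 SD; ATP5B, ATP5C1, NDUFA9, NDUFS3 and COX6A1 are low in both groups with siH2A.Z1, while ATP5A1 and SDHA are not.

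Around the head, ATP5O, the OSCP subunit that joins the head to the peripheral stalk, was at 143 and 150 CPM under siCtrl 3, 124 and 129 under siCtrl 4, 85.8 and 88.4 under siH2A.Z1, 108 and 129 under siH2A.Z2, and 96.1 and 85.0 in the combined depletion. It fell with siH2A.Z1 (log2 difference of -0.66 ± 0.11, adjusted p = 0.00757) and in the combined depletion (-0.57 ± 0.11, adjusted p = 0.0202). ATP5I, the small e subunit of the membrane part, behaved otherwise. It was at 28.4 and 26.5 CPM under siCtrl 3, 28.9 and 28.1 under siCtrl 4, 29.4 and 26.4 under siH2A.Z1, 19.8 and 19.4 under siH2A.Z2, and 19.8 and 17.5 in the combined depletion, and both groups with siH2A.Z2 were below every other library. It was called in the combined depletion (log2 difference of -0.56 ± 0.11, adjusted p = 0.0174) and not upon H2A.Z.2 depletion (-0.49 ± 0.10, adjusted p = 0.106).

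The other F1 genes ATP5D (delta) and ATP5E (epsilon) had differences of -0.30 ± 0.31 and -0.88 ± 0.53 with siH2A.Z1, so that their direction could not be told at this precision. The c-subunit genes, which encode the same mature protein, did not pass the test in any depletion: ATP5G2 and ATP5G3 differed by 0.04 ± 0.11 and 0.05 ± 0.09 with siH2A.Z1, and ATP5G1 by -0.50 ± 0.26. The siH2A.Z1 libraries of ATP5G1, at 35.4 and 35.2 CPM, were beside those of siCtrl 4 and far from those of siCtrl 3, and against siCtrl 3 alone the difference was -0.81 (adjusted p = 1.72e-05), against siCtrl 4 alone -0.09 (adjusted p = 0.544). ATP5SL was called with siH2A.Z1 (-0.62 ± 0.18, adjusted p = 0.0461) and lost the call without either siH2A.Z1 library, either siCtrl 4 library or siCtrl 3 replicate 1 (adjusted p of up to 0.315).

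The RefSeq promoters (GRCh38.p14, 250 bases before to 50 after the transcription start) are shown for members that fell and, for contrast, for ATP5A1, since the depleted proteins are components of promoter chromatin. Of the 79 members, 62 matched a promoter. Capitals mark motifs that are known for respiratory genes and were searched on both strands: the NRF1 core GCATGCGC, the ETS motif CCGGAAGT and the YY1 motif AAGATGGC.
ATP5A1, chr18:46104178-46104477, minus strand: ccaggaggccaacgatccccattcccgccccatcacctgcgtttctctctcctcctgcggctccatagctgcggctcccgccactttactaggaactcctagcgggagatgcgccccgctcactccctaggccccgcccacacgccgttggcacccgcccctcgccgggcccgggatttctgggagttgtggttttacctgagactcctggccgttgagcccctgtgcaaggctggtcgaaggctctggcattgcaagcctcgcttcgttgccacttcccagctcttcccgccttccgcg
ATP5C1, chr10:7787927-7788226, plus strand: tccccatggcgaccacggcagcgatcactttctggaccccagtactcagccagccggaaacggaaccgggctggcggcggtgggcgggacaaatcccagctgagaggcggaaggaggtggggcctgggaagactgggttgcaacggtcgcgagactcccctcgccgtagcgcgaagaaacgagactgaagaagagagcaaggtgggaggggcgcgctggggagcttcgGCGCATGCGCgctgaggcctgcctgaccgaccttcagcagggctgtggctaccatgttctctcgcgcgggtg
ATP5O, chr21:33915755-33916054, minus strand: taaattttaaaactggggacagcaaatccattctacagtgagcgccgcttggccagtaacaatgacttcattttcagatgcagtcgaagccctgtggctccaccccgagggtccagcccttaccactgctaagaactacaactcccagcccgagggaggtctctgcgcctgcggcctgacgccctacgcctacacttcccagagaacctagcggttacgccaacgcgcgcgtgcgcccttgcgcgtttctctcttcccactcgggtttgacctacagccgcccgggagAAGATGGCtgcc
COX6A1, chr12:120437863-120438162, plus strand: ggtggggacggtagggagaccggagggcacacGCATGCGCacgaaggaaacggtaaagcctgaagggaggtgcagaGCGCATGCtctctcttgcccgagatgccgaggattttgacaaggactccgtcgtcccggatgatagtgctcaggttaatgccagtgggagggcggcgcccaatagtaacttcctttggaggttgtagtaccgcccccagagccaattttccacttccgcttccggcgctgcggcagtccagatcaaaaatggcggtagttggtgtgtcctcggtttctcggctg
NDUFA9, chr12:4648864-4649163, plus strand: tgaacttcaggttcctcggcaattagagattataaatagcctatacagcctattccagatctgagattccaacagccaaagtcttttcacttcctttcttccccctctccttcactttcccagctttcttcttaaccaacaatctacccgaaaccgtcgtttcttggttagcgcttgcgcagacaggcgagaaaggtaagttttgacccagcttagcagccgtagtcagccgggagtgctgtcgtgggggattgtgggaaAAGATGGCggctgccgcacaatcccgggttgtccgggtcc

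The ATP5C1 promoter holds overlapping NRF1 cores, that of COX6A1 holds 2 of them apart from each other, those of ATP5O and NDUFA9 hold a YY1 motif, and that of ATP5A1 none of these letters. The promoters shown are not typical of all members. ATP5SL, NDUFA1, NDUFA12, NDUFS3, NDUFS8 and NDUFV1 also fell with siH2A.Z1 and hold none of these motifs. ATP5G2, COX5B, SDHB and SDHD were not called and hold the NRF1 core. ATP5B did not match a promoter. Over all members with a promoter, the NRF1 core was in 13 of 62 (21.0%), the ETS motif in 9 (14.5%) and the YY1 motif in 11 (17.7%), against 4.32%, 6.43% and 4.08% of all 15605 promoters. Upon H2A.Z.1 depletion, 4 of 13 tested members with the NRF1 core and 9 of 48 without were called lower, 4 of 11 with the YY1 motif and 9 of 50 without, and 0 of 9 with the ETS motif and 13 of 52 without. These counts are a description of the letters and were not tested.

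Complex I had 8 of its 37 members called lower upon H2A.Z.1 depletion (21.6%) and 5 in the combined depletion (13.5%). Of all genes tested, 15.7% and 9.35% were called lower in these comparisons. NDUFA9 (chr12:4649095-4694317), which sits where the membrane arm meets the peripheral arm, was at 156 and 154 CPM under siCtrl 3, 138 and 141 under siCtrl 4, 76.7 and 77.3 under siH2A.Z1, 142 and 156 under siH2A.Z2, and 89.1 and 86.7 in the combined depletion. Both groups with siH2A.Z1 were below all others (log2 differences of -0.95 ± 0.10, adjusted p = 0.00138, and -0.72 ± 0.09, adjusted p = 0.00611).

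Among the core subunits encoded in the nucleus, NDUFS3, NDUFS8 and NDUFV1 fell upon H2A.Z.1 depletion. NDUFS3 (chr11:47565336-47584562) of the quinone-binding module was at 45.5 and 41.4 CPM under siCtrl 3, 43.7 and 42.4 under siCtrl 4, 24.9 and 24.1 under siH2A.Z1, 35.6 and 42.1 under siH2A.Z2, and 24.97 and 22.88 in the combined depletion, a log2 difference of -0.83 ± 0.10 both with siH2A.Z1 (adjusted p = 0.0023) and in the combined depletion (adjusted p = 0.00499). NDUFS8, an iron-sulfur subunit, was at 43.1 and 36.8 CPM under siCtrl 3, 49.4 and 36.6 under siCtrl 4 and 26.1 and 20.3 under siH2A.Z1 (log2 difference of -0.85 ± 0.18, adjusted p = 0.0141). NDUFV1, which binds FMN and takes the electrons from NADH, had a difference of -0.39 ± 0.12 (adjusted p = 0.0464) and lost the call without any of the 6 libraries (adjusted p of 0.0563 to 0.341).

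The core subunits NDUFS1 (-0.05 ± 0.09) and NDUFV2 (-0.05 ± 0.12) were within their errors of 0 with siH2A.Z1. For NDUFS7 the test could not settle a direction (-1.07 ± 0.43, adjusted p = 0.104), and its replicates differed widely. It was at 15.9 and 11.8 CPM under siCtrl 3, 25.5 and 15.4 under siCtrl 4, 11.6 and 4.81 under siH2A.Z1, 21.5 and 8.83 under siH2A.Z2, and 7.24 and 17.5 in the combined depletion. Replicate 1 was the higher in every group but the combined depletion, where it was the lower.

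Among accessory subunits, NDUFA12 was at 19.7 and 21.4 CPM under siCtrl 3, 19.08 and 18.99 under siCtrl 4, 11.2 and 12.7 under siH2A.Z1, 21.2 and 22.1 under siH2A.Z2, and 13.3 and 12.8 in the combined depletion, and it fell in both groups with siH2A.Z1 (log2 differences of -0.74 ± 0.13, adjusted p = 0.00762, and -0.58 ± 0.11, adjusted p = 0.0188). NDUFA6 was at 32.4 to 35.9 CPM in the 4 controls, 20.7 and 24.6 under siH2A.Z1 and 27.0 and 23.7 in the combined depletion (-0.62 ± 0.12, adjusted p = 0.0111, and -0.42 ± 0.11, adjusted p = 0.0404). NDUFS5 was called in the combined depletion (-0.45 ± 0.10, adjusted p = 0.0303) and not with siH2A.Z1 (-0.29 ± 0.10, adjusted p = 0.0638). NDUFA1 and NDUFB4 fell with siH2A.Z1 by -0.58 ± 0.13 (adjusted p = 0.0164) and -0.56 ± 0.13 (adjusted p = 0.0201).

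Complex II, which is also the succinate dehydrogenase of the citric acid cycle, had no member called in any depletion. SDHA, the flavoprotein, was at 105 and 99.3 CPM under siCtrl 3, 116 and 108 under siCtrl 4, 113 and 106 under siH2A.Z1, 103 and 106 under siH2A.Z2, and 113 and 113 in the combined depletion, and its differences were 0.02 ± 0.10, -0.01 ± 0.09 and 0.10 ± 0.09. The iron-sulfur subunit SDHB differed by 0.01 ± 0.10, -0.06 ± 0.09 and -0.23 ± 0.10. The membrane anchor SDHC was at 71.5 to 81.4 CPM in the controls and at 54.5 and 59.4 under siH2A.Z2, below every control, with a difference of -0.36 ± 0.09 (adjusted p = 0.174), and the other anchor SDHD was at 116 and 111 CPM under siH2A.Z1 against 70.1 to 103 in the controls (0.41 ± 0.16, adjusted p = 0.108).

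In complex III, UQCRC1, a core subunit, was at 140 and 140 CPM under siCtrl 3, 138 and 132 under siCtrl 4, 102 and 86.9 under siH2A.Z1, 119 and 123 under siH2A.Z2, and 100 and 96.8 in the combined depletion. It fell with siH2A.Z1 (-0.55 ± 0.10, adjusted p = 0.00946) and in the combined depletion (-0.46 ± 0.08, adjusted p = 0.0141). Its partner core subunit UQCRC2 was at 88.0 and 98.1 CPM under siCtrl 3, 55.8 and 62.3 under siCtrl 4 and 85.3 and 96.0 under siH2A.Z1 (0.24 ± 0.24, adjusted p = 0.485), so that the siH2A.Z1 libraries were like those of siCtrl 3. The Rieske iron-sulfur protein UQCRFS1 was at 90.4 to 101 CPM in the controls and below them in all 3 depletions, at 74.9 to 87.3 CPM, without passing the test (-0.28 ± 0.10, -0.24 ± 0.09 and -0.32 ± 0.09, adjusted p of 0.0687, 0.339 and 0.0569).

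In complex IV, COX6A1 (chr12:120438090-120440737), the widely expressed isoform of a nuclear-encoded subunit, was the only member called. It was at 75.2 and 73.2 CPM under siCtrl 3, 82.6 and 75.9 under siCtrl 4, 43.5 and 37.5 under siH2A.Z1, 69.7 and 67.0 under siH2A.Z2, and 51.4 and 54.6 in the combined depletion (-0.93 ± 0.11, adjusted p = 0.00193, with siH2A.Z1; -0.51 ± 0.10, adjusted p = 0.0165, in the combined depletion). COX5A, COX5B, COX6C and COX7C differed by 0.11 ± 0.12, -0.08 ± 0.11, 0.14 ± 0.11 and 0.31 ± 0.24 with siH2A.Z1. For COX7C the 153 and 166 CPM of the siH2A.Z1 libraries were again like those of siCtrl 3.

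**Figure D5:**
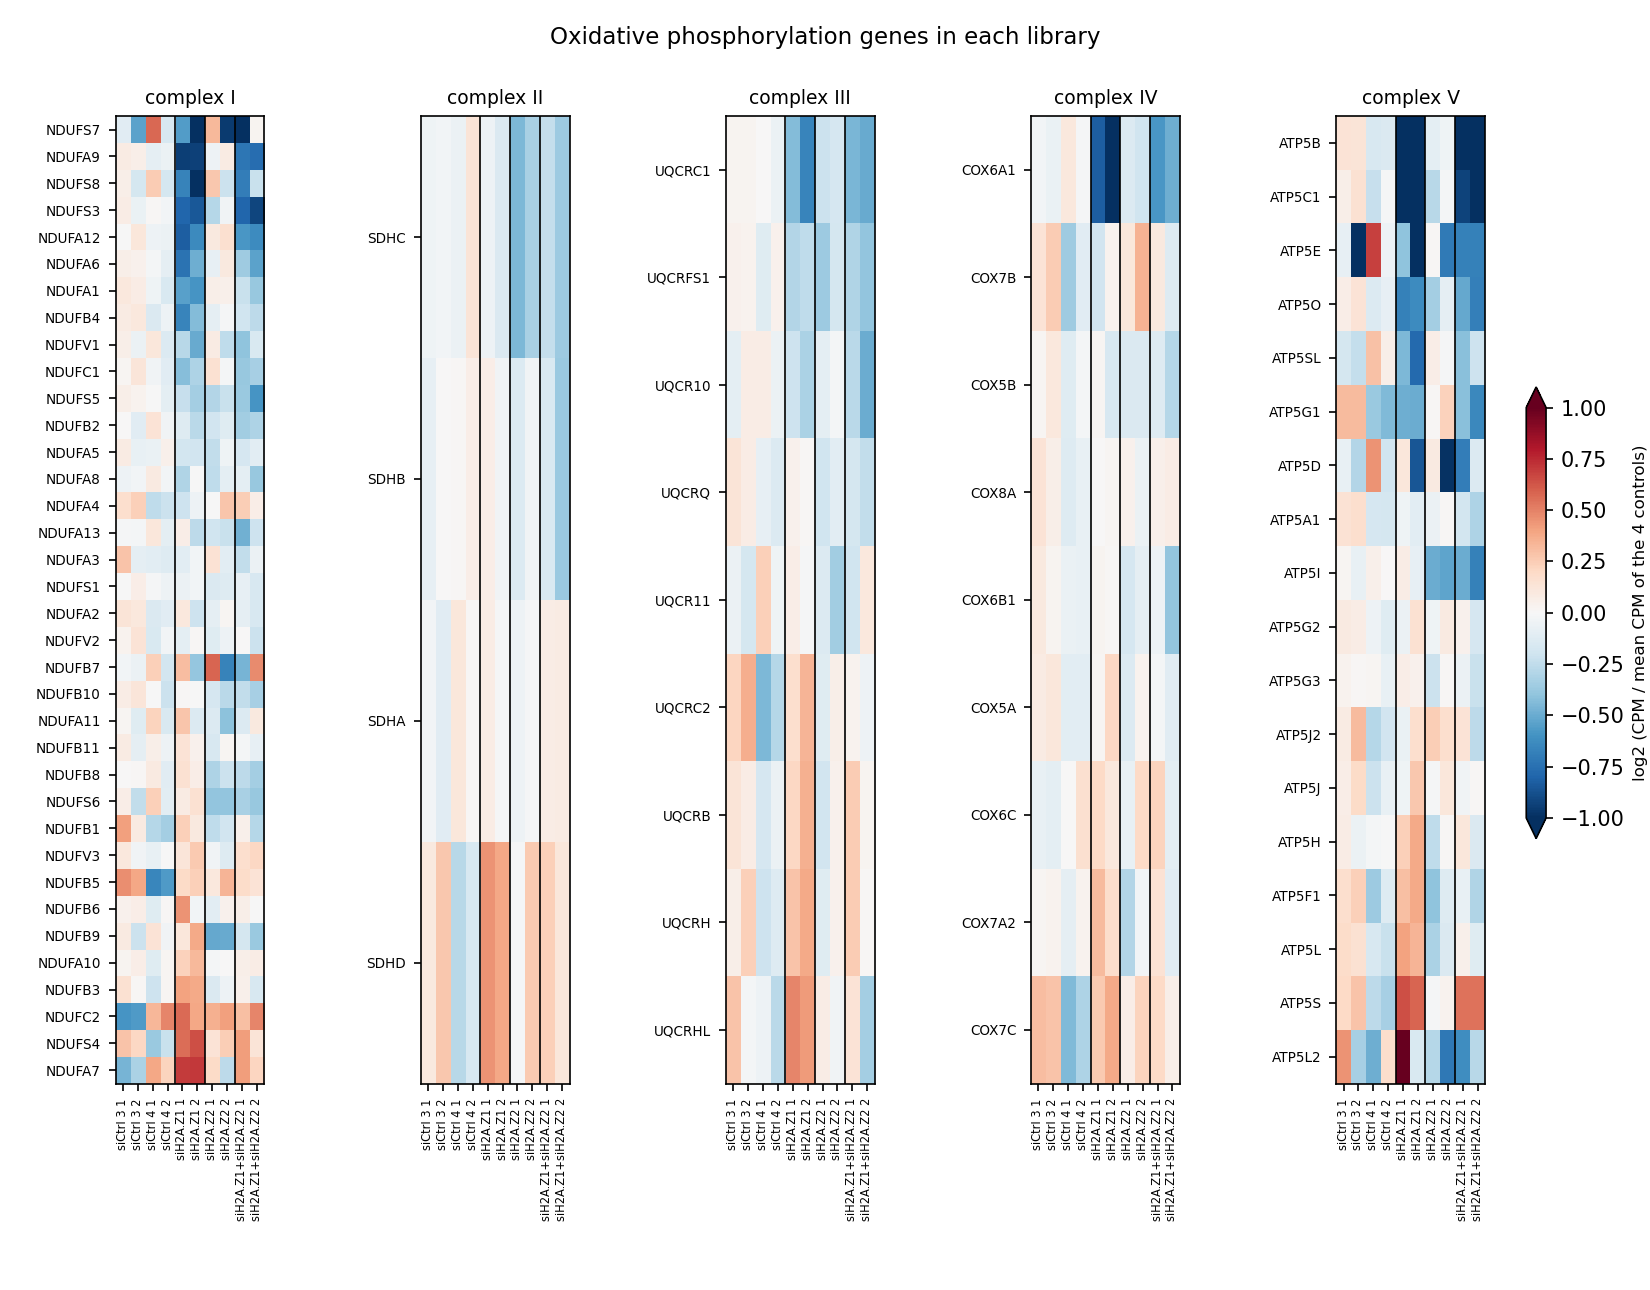
Tested members in each library (columns, replicates 1 and 2 of each group in order; 1 member of complex I is not shown), by complex and ordered by their difference upon H2A.Z.1 depletion. Colour is log2 of CPM over the mean CPM of the 4 controls, cut at -1 and 1, so that values past a cut share its shade. ATP5B and ATP5C1 are past the lower cut in both siH2A.Z1 columns, and genes such as NDUFB5 and UQCRC2 differ between the control columns.

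Leaving out each library in turn, ATP5B, ATP5C1, NDUFA9, NDUFS3 and COX6A1 were called in all 6 fits of H2A.Z.1 depletion, with adjusted p of at most 0.0445. ATP5O, NDUFA1, NDUFA12, NDUFA6, NDUFB4 and NDUFS8 lost the call without either siH2A.Z1 library (adjusted p of up to 0.0787, 0.139, 0.0845, 0.112, 0.165 and 0.146) and UQCRC1 without siH2A.Z1 replicate 2 (adjusted p = 0.107). Where 1 depleted library remains, it is assumed to vary like the controls. In the combined depletion ATP5B alone was called in all 6 fits (adjusted p of at most 0.0479). NDUFA6 lost its call in all 6 (adjusted p of up to 0.274), NDUFS5 without either siCtrl 3 or either combined library (up to 0.236), and the other 8 called members without either combined library (up to 0.184).

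H2A.Z.2 depletion called none of the 77 members, where 0.785% of all 16188 genes tested were called (0.179% lower and 0.605% higher). At an unadjusted p under 0.05, 5 members and 2223 genes passed, and DESeq2 called 3 members, all lower. The median difference over the members was -0.05, with a range from -0.49 (ATP5I) to 0.41 (NDUFC2), and the siH2A.Z2 libraries lay below all 4 controls in 16 members and above them in 0, and over all genes in 2260 and 2238 of 16188. The groups thus did not overlap in 20.8% of the members and in 27.8% of all genes. Against each control siRNA alone, 6 members (1 higher) were called with siCtrl 3, where 14.3% of 15675 genes were (9.14% higher), and 12 (9 higher) with siCtrl 4, where 29.5% were (17.1% higher). Those lower in both were ATP5I, SDHC and NDUFB9. NDUFB9, an accessory subunit of complex I that was chosen after its values were seen, was at 73.2 to 93.5 CPM in the controls and at 59.8 and 59.9 under siH2A.Z2. Over all genes, 1.67% of 15675 were lower against both control siRNAs and 3.87% higher. As given above, H2AFV itself missed the threshold in this comparison.

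The combined depletion lowered 11 of the 77 members and raised none, where 17.1% of 16184 genes were called, 9.35% lower and 7.77% higher. The members called lower made up 14.3%. The median difference was -0.16 over the members, -0.20 in complex I and -0.25 in complex V, and -0.01 over all genes. The libraries of the combined depletion lay below all 4 controls in 32 members and above them in 2, and over all genes in 4141 and 3726 of 16184. Against each control siRNA alone, 12 members were lower in both tests and none was higher in both, and the 12 were the 11 called members and UQCR10, chosen after its values were seen. The 12 made up 15.6% of the members; over 15570 genes, 12.4% (1931) were lower in both and 1719 were higher in both. Tested against siCtrl 3 alone 22 members were called (2 higher), where 38.7% of genes were (18.6% higher), and against siCtrl 4 alone 24 (8 higher), where 48.1% were (24.3% higher).

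The depletions were then compared with each other. Between the siH2A.Z1 and siH2A.Z2 libraries 23 members were called, 14 lower and 9 higher with siH2A.Z1, where 32.2% of all 16486 genes were called (18.4% lower and 13.9% higher). The share of the members was 29.9%. With upper-quartile factors the split was 14 higher of 25, with the library size alone 15 higher of 27. For these scalings too the share of all genes is not given here. ATP5B (-2.20 ± 0.13, adjusted p = 9.38e-06), ATP5C1 (-1.31 ± 0.14, adjusted p = 0.000149), NDUFA9 (-0.98 ± 0.09, adjusted p = 8.51e-05), NDUFS8 (-0.92 ± 0.24, adjusted p = 0.0175) and NDUFA12 (-0.89 ± 0.12, adjusted p = 0.000704) had the largest differences among the called members. Of these NDUFS8 lost the call without siH2A.Z1 replicate 2 (adjusted p of up to 0.142) or without siH2A.Z2 replicate 1, and the others kept it without any of the 4 libraries.

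Between the combined and the H2A.Z.1 depletion 2 members were called, 1 in each direction, where 3.79% of 16486 genes were called (1.15% lower and 2.64% higher). ATP5B was higher in the combined depletion than with siH2A.Z1 alone (0.59 ± 0.12, adjusted p = 0.0346) and ATP5I was lower (-0.56 ± 0.11, adjusted p = 0.0286). Both calls were lost without any of the 4 libraries compared, with adjusted p of up to 0.22 for ATP5B and 0.248 for ATP5I. For ATP5C1 (0.45 ± 0.13, adjusted p = 0.108) and COX6A1 (0.41 ± 0.11, adjusted p = 0.0708) the combined depletion was also the less extreme of the 2, without passing the test. Over the 77 tested members the median difference was -0.08, and over all genes 0.01. The combined libraries lay below the siH2A.Z1 libraries in 35 members and above them in 11, and over all genes in 5138 and 4955.

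Levels in CPM summed over the members of a complex are given as a description, with no test. Complex V was at 1689 ± 166 (SD, n = 4) in the controls, 1358 ± 17.4 (n = 2) with siH2A.Z1, 1583 ± 97.9 (n = 2) with siH2A.Z2 and 1230 ± 84.5 (n = 2) in the combined depletion, which is 80.4%, 93.7% and 72.8% of the control mean. Without ATP5B and ATP5C1, left out after their values were seen, complex V was at 1229 ± 117 in the controls and at 101%, 93.6% and 86.6% of that level in the depletions, and the median log2 difference of its 18 tested members with siH2A.Z1 was 0.01. Complex I was at 1651 ± 81.0 in the controls and at 93.1%, 95.5% and 88.2% of that level in the depletions, complex III at 97.4%, 90.9% and 88.6%, and complex IV at 102%, 100% and 96.6%. Complex II was at 109%, 95.4% and 98.7%. All 79 members together were at 106% of the control mean under siCtrl 3 and 94.0% under siCtrl 4, a spread like that between the controls and H2A.Z.1 depletion (91.5%), while the combined depletion was at 84.8%.

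The seed of the siRNA against H2A.Z.1 has a perfect match, TGATTGA, in the annotated 3'UTR of 6 members, where 10.2% of 17290 genes have one. They are shown with flanking bases and the site in capitals, for the 3 members that fell:
ATP5B, chr12:56638233-56638239, minus strand, exon 10: gcacaagagcctTGATTGAaga
NDUFA1, chrX:119876548-119876554, plus strand, exon 3: gaagcattttccTGATTGAtga
NDUFS3, chr11:47584523-47584529, plus strand, exon 7: gcgccttatctaTGATTGAgtg

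The other 3 members with this match, NDUFA5, NDUFB6 and NDUFS1, were not called upon H2A.Z.1 depletion. NDUFS1 has 3 sites, some of them overlapping. Sites were searched in the canonical transcript, which for NDUFS1 has 11660 nt, against 2394 nt for its median protein-coding transcript. Whether the transcripts in these cells carry the sites was not tested. Of the 71 tested members without a site 11 fell, among them ATP5C1, NDUFA9 and COX6A1. Over all genes, 23.5% of the 1528 with a site and 16.9% of the 12167 without were called lower upon H2A.Z.1 depletion, and 9.36% and 12.2% higher. The H2A.Z.2 siRNA printed above, if it is the one used, has its match, TGTGTTG, in 6 members (ATP5D, ATP5F1, ATP5I, NDUFA9, NDUFB5 and SDHA), where 17.7% of 3'UTRs have it. SDHC, NDUFB8 and NDUFS6 were, like ATP5I, below every other library in both groups with siH2A.Z2, and none of them has this match. NDUFB8 and NDUFS6 were chosen after their values were seen. The site of ATP5I is:
ATP5I, chr4:672443-672449, minus strand, exon 4: aataaagcttccTGTGTTGtgt

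Over all genes, 0.745% of the 2686 with this site and 0.0633% of the 11062 without were called lower upon H2A.Z.2 depletion. The part of these sites in the differences of the members was not tested.

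The genes that build or serve the machinery were read from lists. Of 18 assembly factors of complex I, 5 rose and 1 fell upon H2A.Z.1 depletion; of 24 of complex IV, 2 rose and 4 fell, and of 6 each of complexes III and V, 1 and 0 fell. Among 10 regulators of respiratory genes 1 rose and 3 fell: GABPB2 had the largest rise (0.98 ± 0.29, adjusted p = 0.0431) and the coactivator PPARGC1B the largest fall (-1.15 ± 0.17, adjusted p = 0.00418) of all listed genes. Of 14 electron carrier genes 2 fell, of 18 genes of the citric acid cycle and pyruvate dehydrogenase 3 fell, of 77 mitochondrial ribosomal protein genes 2 rose and 8 fell, and of 10 genes for transcription and replication of mitochondrial DNA 2 rose. Of the genes listed with a complex but outside the rule, 1 of 4 tested was called, a rise of a gene listed with complex IV. In complex II, 0 of 4 assembly factors changed. Over all 16112 genes tested, 15.7% were called lower and 12.2% higher, and no list was tested against these shares.

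In the combined depletion 15 of the listed genes fell and 2 rose, where 9.35% of all 16184 genes tested were called lower and 7.77% higher. Those that fell include 3 of 24 assembly factors of complex IV, 2 of 10 regulators and 2 of 18 genes of the citric acid cycle and pyruvate dehydrogenase. Among the listed genes, the largest fall was that of MYC (-1.10 ± 0.12, adjusted p = 0.00406) and the largest rise that of the complex II assembly factor SDHAF4 (1.21 ± 0.26, adjusted p = 0.0251). Of the mitochondrial ribosomal protein genes 5 fell and none rose, with a median difference of -0.24 over 77 genes. Upon H2A.Z.2 depletion none of the listed genes was called, where 0.785% of all 16188 genes tested were.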

How the data were processed

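RNA of U2OS cells was sequenced in 10 libraries, 2 in each of 5 groups taken from the sample labels. Reads were mapped by the authors with STAR on hg38, and HTSeq 0.6.1 gave strand-specific counts per RefSeq gene; the deposited values used here are these raw counts. The 3 deposited comparison tables of the authors, made with DESeq2 1.22.1, hold log2 fold changes, p-values and normalized counts and were not used.

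Counts were filtered with filterByExpr, scaled with TMM factors and tested with the quasi-likelihood F test of edgeR 4.0.16 (limma 3.58.1, R 4.3.3), with Benjamini-Hochberg adjustment over all genes tested and a call at an adjusted p under 0.05 and an absolute log2 fold change above 0.32. Each depletion was compared with the 4 controls as a single group in a fit of those 6 libraries. The control siRNAs were compared in a fit of all 10 libraries in 5 groups, and the depletions with each other in a fit of all 10 in which the controls were a single group. The procedure was tested on simulated data. Exact permutation of 2 against 4 libraries cannot go below p = 0.0667 and was not used. Alternatives were DESeq2 1.42.0, RLE and upper-quartile factors, library size alone, no filter, no fold threshold, offsets for length and GC content (lowess span 0.3), each control siRNA alone, other sets of libraries in the fit, a replicate block and leaving out each library.

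The members and lists were chosen with earlier results of these data known. Named genes were the called members of each depletion up to the 10 largest rises and falls, fixed core subunits of each complex, the tissue-restricted isoforms, the 3 highest and lowest levels per length, up to 5 members per contrast between depletions or control siRNAs, the targeted genes, and the most changed gene of the other lists. A few genes are not reported by name here. Gene positions and transcript lengths are from GENCODE release 44 on hg38, which matched 21041 of the 23089 genes by symbol, and 94.3% of the genes tested had a length. Tables and figures were made with Python 3.11.15, pandas 2.3.3, numpy 2.4.6 and matplotlib 3.10.9.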

Additional observations from a re-analysis of the deposited data

Results flagged for a closer look

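In 2 of 40 members checked, 1 control library stood apart from the other 3 by Dixon's criterion for 4 libraries. For 4 libraries of a single kind, chance gives about 1 in 20. The controls are 2 libraries of each of 2 control siRNAs that differed from each other, so that this rate need not hold here. SDHC was at 81.4 CPM in siCtrl 4 replicate 2, with the next control at 72.9 (gap over range of 0.856). UQCRFS1 was at 90.4 CPM in siCtrl 4 replicate 1, with the next at 101 (0.971).

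The effect of siH2A.Z1 differed from that of siH2A.Z2, by edgeR's test of the difference itself, in 23 members. Lower with siH2A.Z1 on the log2 scale were ATP5B (-2.20), ATP5C1 (-1.31), NDUFA9 (-0.98), NDUFS8 (-0.92), NDUFA12 (-0.89), COX6A1 (-0.79), NDUFS3 (-0.69), ATP5SL (-0.66), NDUFA1 (-0.65), NDUFA6 (-0.65), NDUFB4 (-0.52), ATP5O (-0.47), NDUFC1 (-0.47) and UQCRC1 (-0.39). Higher were NDUFB8 (0.34), COX7A2 (0.37), ATP5H (0.40), NDUFB3 (0.46), ATP5I (0.48), NDUFS6 (0.48), ATP5L (0.57), ATP5F1 (0.57) and NDUFB9 (0.73). Only ATP5B, ATP5C1, NDUFA9, NDUFA12, COX6A1, NDUFS3, NDUFA1 and NDUFB9 kept the call without any of the 4 libraries. Members outside the rule for named genes were chosen after their values were seen.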

How the results depend on the processing

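Of the 14 members called upon H2A.Z.1 depletion, leaving out a library left 5 to 15, with 5 without siH2A.Z1 replicate 2 and 6 without replicate 1. The fit of 10 libraries in 5 groups called 27, siCtrl 3 alone as control 22 and siCtrl 4 alone 29. Upon H2A.Z.2 depletion (0 called) the same settings called 6, 6 and 12, DESeq2 3, and every fit without a library 0. In the combined depletion (11 called) they called 20, 22 and 24, and the fits without a library 1 to 11, with 1 without either combined library. Between siH2A.Z1 and siH2A.Z2 (23 called) the fits without a library called 11 to 13. Between the combined and H2A.Z.1 depletions (2 called), the 4 libraries alone called 10, DESeq2 5, the 5 groups 11, offsets for length and GC content 9 (6 higher), no filter 1, and the fits without a library 0. Between the control siRNAs (17 called) the fits without a library called 12 to 18. With offsets for length and GC content, ATP5A1, ATP5F1, ATP5L, ATP5SL, COX7B, NDUFA4 and SDHD lost their call between the control siRNAs. The same offsets lost the call of NDUFV1 upon H2A.Z.1 depletion and of UQCRC1 in the combined depletion. Between the single depletions they lost those of ATP5H, ATP5I, COX7A2, NDUFB3, NDUFB8 and UQCRC1. A single difference reversed as a call: UQCRC2 upon H2A.Z.2 depletion was 0.36 against siCtrl 4 alone. Apart from the fits against a single control siRNA, the share of all genes called under these settings is not given here. The causes were not tested.

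The labels do not say what a shared replicate number stands for, and 2 numbers per group are too few to tell a pairing. Deviations of same-numbered replicates correlated at 0.0800 to 0.279 among controls and single depletions and at -0.294 to -0.131 with the combined depletion. With a replicate block, 14, 0 and 5 members were called in the H2A.Z.1, H2A.Z.2 and combined depletions, 18 between the control siRNAs, 21 between the single depletions and 1 between the combined and H2A.Z.1 depletions. In the combined depletion ATP5O, COX6A1, NDUFA12, NDUFA6, NDUFS5 and UQCRC1 lost their call with the block (adjusted p of 0.0596, 0.0547, 0.0593, 0.0884 and 0.0650, and for UQCRC1 just above 0.05). With the numbers of the combined depletion crossed, chosen after seeing the data, the block called 9 against the controls and 3 against H2A.Z.1 depletion. The canonical transcript lengths were also chosen after seeing the data.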

Other observations

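Among the other genes of the pathway, several assembly factors moved upon H2A.Z.1 depletion, where 28.0% of all 16112 genes tested were called. Those named here were chosen after their values were seen. Of the complex I assembly factors, NDUFAF1 (0.86 ± 0.15 (SE) on the log2 scale, edgeR adjusted p = 0.00722) and FOXRED1 (0.60 ± 0.12, adjusted p = 0.0115) rose and ECSIT fell (-0.67 ± 0.17, adjusted p = 0.0262). Of those of complex IV, COA3 (-1.11 ± 0.12, adjusted p = 0.00132) and COA6 (-1.07 ± 0.19, adjusted p = 0.00822) fell. COQ9, which acts in the synthesis of coenzyme Q, fell upon H2A.Z.1 depletion (-0.88 ± 0.11, adjusted p = 0.00239) and in the combined depletion (-1.03 ± 0.10, adjusted p = 0.00238).

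The members with the most GC-rich transcripts differed between replicates in the same order. NDUFB7, at 64.9% GC, was at 12.2 and 11.9 CPM under siCtrl 3, 14.7 and 10.9 under siCtrl 4, 15.4 and 9.48 under siH2A.Z1, 18.5 and 7.81 under siH2A.Z2, and 8.98 and 17.2 in the combined depletion. As for NDUFS7, NDUFS8 and ATP5D, replicate 1 was the higher in every group but the combined depletion. The order was not limited to GC-rich members. UQCR11, at 52.8% GC, had it too, with 30.8 and 37.9 CPM in the combined depletion. So had ATP5E, at 38.4% GC and few counts, where the combined replicates were nearly equal (1.47 and 1.48 CPM). Both were picked here after their values were seen. The part of GC content in these values was not tested.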
